A study of Mus musculus with 10 samples.

Results

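The genes described here are 7 subunits of the GABA-A receptor, Gabra2, Gabra3, Gabra5, Gabrb1, Gabrb2, Gabrg1 and Gabrq, taken by name from the 55367 genes listed for each neuron. They are 7 of the 19 mouse GABA-A subunit genes, and all 19 are listed. The transcriptomes come from 10 inspiratory neurons of the preBötzinger complex (preBötC), the brainstem site that generates the rhythm of breathing. Each neuron was patch-clamped in a slice from a neonatal mouse, its contents were drawn into the pipette, and its RNA was sequenced as 1 library. Type-1 neurons, putatively rhythm-generating, are samples 4, 5, 6 and 7. The single Type-2 neuron, putatively pattern-generating, is sample 1. The 5 neurons whose physiology was ambiguous, called Unknown, are samples 2, 3, 8, 9 and 10.

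Samples 1 (P0), 5 (P0), 6 (P3) and 7 (P3) came from Dbx1;Ai148 mice on a C57Bl/6J or mixed C57Bl/6J and CD1 background. In these mice Cre recombinase driven by the Dbx1 promoter switches on the Ca2+ indicator GCaMP6f, so labelled neurons descend from Dbx1-expressing precursors. Samples 2 (P2), 3 (P0), 4 (P3), 8 (P0), 9 (P2) and 10 (P1) came from CD-1 wild-type mice without a reporter. These lines follow the labels. The text of the study places every Unknown neuron in CD-1 mice, and 3 Type-1 neurons and the Type-2 neuron in the Dbx1 line, as the labels do. Its legends instead place samples 7 to 10 in Dbx1;Ai148 and the rest in CD-1. By the legends the Unknown samples 8, 9 and 10 would be Dbx1-derived, which the text of the study contradicts. Statements and figures on mouse line rest on the labels unless the legends are named. Shared by all 10 was activity in phase with the inspiratory motor output. The labels name no animal, so no test between groups was made and the SD over neurons is a description of these 10 libraries.

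The GABA-A receptor is a pentamer of homologous subunits around a chloride channel. Most receptors at synapses hold a pair of alpha subunits, a pair of beta subunits and a gamma subunit. GABA binds between alpha and beta, and benzodiazepines bind between alpha and gamma. The alpha5 subunit is best known from receptors outside synapses, and alpha2, alpha3 and alpha5 are prominent in the immature brain. In neonatal neurons chloride can be high enough for the current to depolarise the cell, and inhibition by GABA and glycine shapes the pattern of breathing.

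The upstream sequences of 3 of the genes are given because of their place in the pattern described below. Of the 7, Gabra2 was at 1 FPKM or more in the most neurons, and Gabrq was at that level in 1 neuron. Gabrg1 lies next to Gabra2 on chromosome 5. Each is the 250 bases before the RefSeq start in GRCm38.p6, on the strand of the gene, with every CG in capitals.
Gabra2, chr5:71095850-71096099, minus strand: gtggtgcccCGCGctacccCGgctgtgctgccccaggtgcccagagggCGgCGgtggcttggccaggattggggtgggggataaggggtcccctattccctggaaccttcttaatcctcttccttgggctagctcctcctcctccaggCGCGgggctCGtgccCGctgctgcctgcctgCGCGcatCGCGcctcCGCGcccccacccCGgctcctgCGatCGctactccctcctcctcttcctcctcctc
Gabrg1, chr5:70842618-70842867, minus strand: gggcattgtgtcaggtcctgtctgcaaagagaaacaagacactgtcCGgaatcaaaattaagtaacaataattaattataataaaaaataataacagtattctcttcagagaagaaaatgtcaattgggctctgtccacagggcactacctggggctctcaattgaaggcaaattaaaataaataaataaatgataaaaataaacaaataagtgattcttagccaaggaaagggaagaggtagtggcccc
Gabrq, chrX:72824928-72825177, plus strand: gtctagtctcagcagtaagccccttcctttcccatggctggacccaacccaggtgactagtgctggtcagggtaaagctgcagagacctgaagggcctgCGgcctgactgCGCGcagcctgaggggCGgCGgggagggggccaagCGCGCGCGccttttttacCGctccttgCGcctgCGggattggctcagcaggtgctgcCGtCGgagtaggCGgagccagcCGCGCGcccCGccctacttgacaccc

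The windows of Gabra2 and Gabrq hold 18 and 19 CG pairs, and that of Gabrg1 holds 1. Over 32851 RefSeq promoters of the same length the median was 6, and 21.7% held at least 18. At the limit of 1 FPKM, the genes with the widest and the narrowest detection thus both have CG-rich windows. With a limit of 5 FPKM, Gabra5 was held by more neurons than Gabra2. Among the other genes, the window of Gabra5 held 9 CG pairs and those of Gabra3 held 0. The windows of Gabrb1 held 18 and 6, and those of Gabrb2 held 8, 8 and 4. A count of CG pairs describes the letters of the window only.

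The fragments counted on genes were between 21392146 and 36629393 per neuron. FPKM, the fragments per kilobase of gene and per 1e+06 fragments counted, corrects for length and so allows levels to be compared between genes. The smallest detectable level, set at 3 fragments, lay between 0.00592 and 0.0472 FPKM for the 7 genes and depended on gene length and depth. The reads carry no molecular identifiers, so this limit and all intervals cover counting error only. A neuron is said to hold a gene at 1 FPKM or more. By that limit 5055 to 6795 genes were held in samples 1 to 4, which had the most dilute cDNA, and 6632 to 9307 in samples 5 to 10. The list of 8 neuronal markers summed to 58.4 FPKM in sample 4 and to 761 FPKM or more elsewhere, with 6 to 8 markers held per neuron. The 8 microglia markers summed to 15054 FPKM in sample 4, where all 8 were held, against 0.667 to 1931 FPKM in the other neurons, which held 0 to 7 of them, and sample 4 also held 4 of the 10 astrocyte markers, with a sum of 6528 FPKM. Sample 4 is called the library labelled Type-1 below, and the part of RNA from other cells in its values was not tested. Of the 6 endothelial markers, 0 were held in any neuron, and 5 had no fragment in any library.

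The 7 genes made 70 combinations of a gene and a neuron. A level of 1 FPKM or more was found in 31 of them, between 1.06 and 125.9 FPKM with a median of 14.5 FPKM. Over all listed genes 13.4% of such combinations were held, and 29.9% of these genes were held by at least 1 neuron. Over the 16546 genes held by at least 1 neuron the median was 4 neurons, as it was over the 7 genes. Among the 39 others, 12 had no fragment, and the median count was 1 fragment. The levels spread widely, without a clear gap at the limit. At 10 FPKM or more were 18 combinations, 9 lay between 1 and 5 FPKM, and 4 lay between 0.1 and 1 FPKM. Of the 27 combinations below the limit with a fragment, 25 had at most 0.274% of the count of the same gene in another library. The exceptions were Gabrb1 in sample 4 with 298 fragments and Gabrq in sample 8 with 35 fragments. In the 31 held combinations the gene stood above between 33% and 96.5% of the genes detected in that neuron, with a median of 70.9%.

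**Figure D1:**
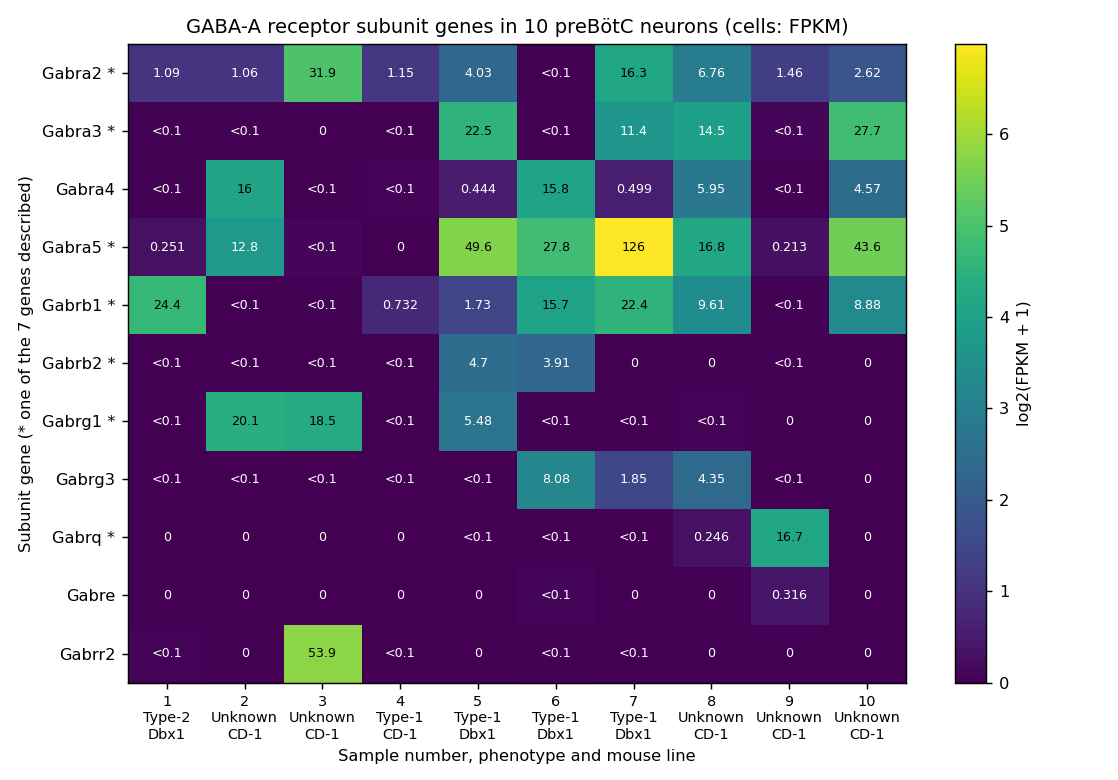
Levels of 11 GABA-A subunit genes (rows) in the 10 neurons (columns, with phenotype and mouse line), coloured by log2(FPKM + 1) and printed as FPKM. Genes marked with an asterisk are the 7 described, and the alpha5 gene Gabra5 in sample 7, at 125.9 FPKM, is the brightest cell.

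Among the alpha subunits, which form the GABA site together with a beta subunit, Gabra2 was held by 9 of 10 neurons, Gabra5 by 6 and Gabra3 by 4. Of all listed genes, 4.59% were held by at least 9 neurons, 6.67% by at least 8, 13.6% by at least 5 and 18.8% by at least 3. None of the 7 was held by all 10 neurons, as 2.33% of all genes were, and each was held by at least 1, as 29.9% were. Gabra5 reached the highest levels, and Gabra2 was held by the most neurons. At least 2 of these 3 genes were held together by 5 neurons, samples 2, 5, 7, 8 and 10.

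Gabra2 (chromosome 5, 70957597 to 71095849 in GRCm38, minus strand) was at 1.09, 1.06, 31.9, 1.15, 4.03, 0.0125, 16.3, 6.76, 1.46 and 2.62 FPKM in samples 1 to 10. Sample 3, an Unknown neuron, was highest, sample 7 followed, and sample 6 had 3 fragments. The mean was 6.64 ± 10.1 FPKM (SD, n = 10 neurons). In samples 1, 2, 4 and 9 the level was just above the limit, on 178, 295, 259 and 246 fragments. The exact 95% Poisson intervals were 0.935 to 1.26 FPKM in sample 1, 0.947 to 1.19 FPKM in sample 2, 1.02 to 1.30 FPKM in sample 4 and 1.28 to 1.65 FPKM in sample 9. Counting error alone therefore does not place samples 1 and 2 above 1 FPKM, nor does it separate samples 1, 2 and 4. With a limit of 5 FPKM, 3 neurons held Gabra2, samples 3, 7 and 8.

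Gabra5 (chromosome 7, 57407672 to 57510059 in GRCm38, minus strand) was at 0.251, 12.8, 0.0648, 0, 49.6, 27.8, 125.9, 16.8, 0.213 and 43.6 FPKM in samples 1 to 10. The 6 neurons that held it were all at 12.8 FPKM or more, and the 4 that did not were at 0.251 FPKM or less, on 16 fragments at most. The mean was 27.7 ± 39.1 FPKM (SD, n = 10 neurons), the highest of the 7 genes. Gabra5 was above both Gabra2 and Gabra3 in each of the 6 neurons that held it, and Gabra2 was the highest of the 3 in samples 1, 3, 4 and 9.

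Gabra3, an X-linked gene (72432681 to 72656848 in GRCm38, minus strand), was at 22.5, 11.4, 14.5 and 27.7 FPKM in samples 5, 7, 8 and 10. In the other 6 neurons it had 0 to 8 fragments, 0.0924 FPKM at most, so the 2 ranges did not approach each other. The mean was 7.62 ± 10.7 FPKM (SD, n = 10 neurons). Each of the 4 neurons with Gabra3 also held Gabra2, Gabra5 and Gabrb1. Gabra5 and Gabrb1 were held without Gabra3 in sample 6, where Gabra3 had 1 fragment.

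Gabra4, an alpha subunit known from extrasynaptic receptors and not one of the 7, was held in samples 2, 6, 8 and 10, at 16.0, 15.8, 5.95 and 4.57 FPKM. It was above Gabra5 in sample 2 and below it in the other 3. Gabra6 had no fragment in any neuron.

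**Figure D2:**
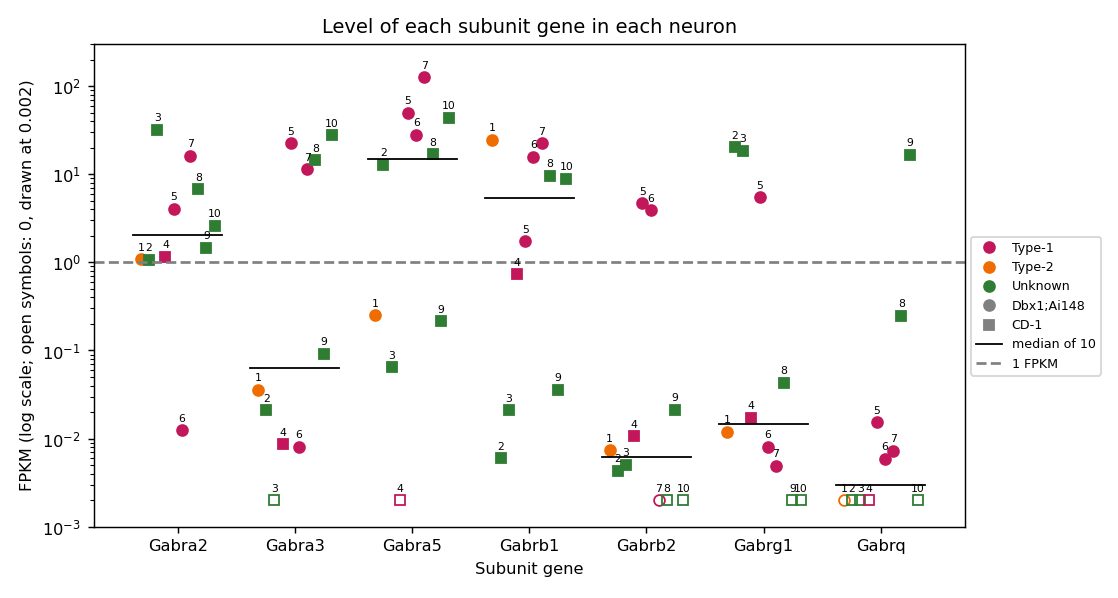
FPKM of each of the 7 genes in each neuron on a log scale, numbered by sample, coloured by phenotype and shaped by mouse line. Open symbols are at 0, the short line is the median of the 10 neurons and the dashed line is 1 FPKM. Gabra3 and Gabrg1 split into levels above 5 FPKM and levels under 0.1 FPKM.

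Of the beta subunits, which carry the other side of the GABA site, Gabrb1 was held by 6 neurons and Gabrb2 by 2, where 22.4% of all genes were held by at least 2. Gabrb1 (chromosome 5, 71658113 to 72149037 in GRCm38, plus strand) was at 24.4, 0.00598, 0.0209, 0.732, 1.73, 15.7, 22.4, 9.61, 0.036 and 8.88 FPKM in samples 1 to 10. Sample 1, the Type-2 neuron, was highest, and the library labelled Type-1 of sample 4 lay just below the limit. The interval of sample 4 was 0.651 to 0.82 FPKM and that of sample 5, the lowest neuron above the limit, was 1.62 to 1.85 FPKM. The mean was 8.35 ± 9.55 FPKM (SD, n = 10 neurons). By the labels, all 4 neurons from Dbx1;Ai148 mice held Gabrb1, and 2 of the 6 from CD-1 mice did, samples 8 and 10. By the lines in the legends of the study, a comparison added after seeing the data, these counts would be 3 of 4 and 3 of 6. Those lines conflict with the text of the study.

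Gabrb2, the beta subunit of most adult receptors (chromosome 11, 42419757 to 42629028 in GRCm38, plus strand), was at 4.70 FPKM in sample 5 and 3.91 FPKM in sample 6, on 1094 and 784 fragments. The other 8 neurons had 0 to 3 fragments, 0.0214 FPKM at most. Both neurons with Gabrb2 were Type-1 and, by the labels, came from Dbx1;Ai148 mice. By the legends, which conflict with the text of the study, both would be from CD-1 mice. Sample 7, the third Type-1 neuron labelled Dbx1-derived, had no fragment, which allows up to 3. Gabrb2 reached 5 FPKM in none of the 10 neurons. Leaving out sample 5 or sample 6 leaves 1 neuron that holds it.

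In the 2 neurons that held both, the order of these beta genes differed. Gabrb2 at 4.70 FPKM was above Gabrb1 at 1.73 FPKM in sample 5, whereas Gabrb1 at 15.7 FPKM was above Gabrb2 at 3.91 FPKM in sample 6.

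**Figure D3:**
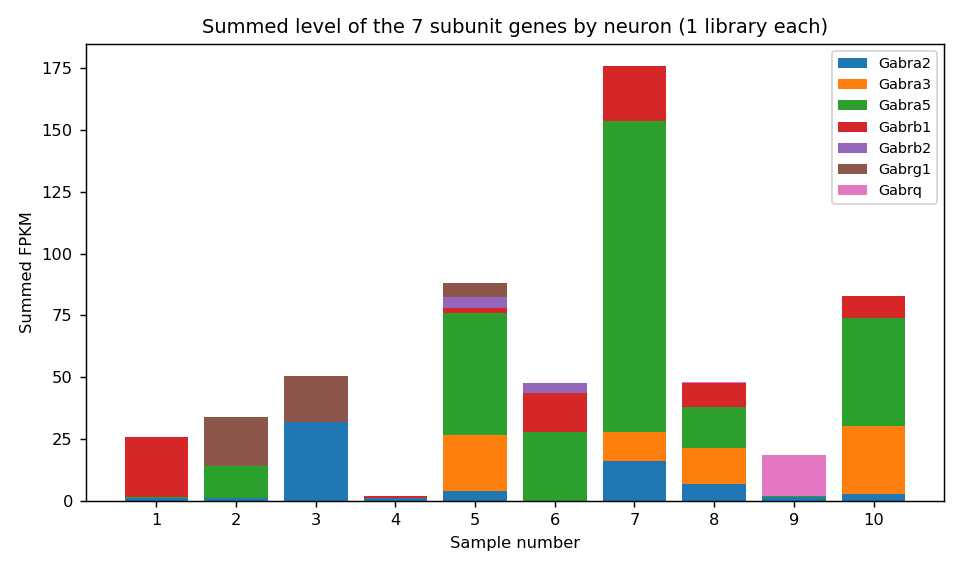
Summed FPKM of the 7 genes in each neuron, stacked by gene, with 1 library per bar and no error bars. Sample 7 is highest at 176 FPKM, mostly Gabra5, and sample 4 is lowest at 1.92 FPKM.

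The gamma subunit gives the receptor its benzodiazepine site. Gabrg1 (chromosome 5, 70751047 to 70842617 in GRCm38, minus strand) was at 20.1, 18.5 and 5.48 FPKM in samples 2, 3 and 5, on 5745, 4539 and 1579 fragments. The other 7 neurons had 0 to 9 fragments, 0.0431 FPKM at most. The mean was 4.42 ± 8.05 FPKM (SD, n = 10 neurons). Gabrg3, also a gamma subunit but not one of the 7, was held in samples 6, 7 and 8, at 8.08, 1.85 and 4.35 FPKM. No neuron held both Gabrg1 and Gabrg3, and 4 held neither. Each was held by 3 of 10 neurons and no share over other gene pairs was computed, so this describes these libraries only.

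Genes of glia were found in libraries with Gabrg1 and in libraries without it. Samples 2 and 3 held 8 of the 10 astrocyte markers each, summing to 5336 and 10419 FPKM, and 4 of the 7 markers of the oligodendrocyte lineage each, summing to 205 and 337 FPKM. Sample 8 held all 10 astrocyte markers, with a sum of 3646 FPKM, and 4 of the oligodendrocyte lineage, with a sum of 107 FPKM. Gabrg1 had 9 fragments in sample 8. Sample 5 held 5 astrocyte markers, summing to 228 FPKM, and 2 of the oligodendrocyte lineage, summing to 54.4 FPKM. The 5 were Fabp7 at 151, Apoe at 62.0, Aldh1l1 at 9.47, Slc1a3 at 2.60 and Sox9 at 2.45 FPKM. Aqp4 and Gja1 were at 0 in that neuron. The part of glial RNA in the Gabrg1 levels, or in the levels of any other subunit gene in these libraries, was not tested.

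Gabrq encodes the theta subunit, a rare subunit found mainly in monoaminergic and other brainstem and hypothalamic neurons. This X-linked gene (72825178 to 72842602 in GRCm38, plus strand) was at 16.7 FPKM in sample 9, on 1969 fragments with an exact 95% Poisson interval of 1883 to 2058. It was at 0.246 FPKM in sample 8, on 35 fragments, and at 0 to 3 fragments in the other 8 neurons. Sample 9 thus held 98.4% of the summed FPKM of the gene. Gabre, its X-linked relative of the epsilon type, had 33 fragments in sample 9, 10 in sample 6 and 0 in the other 8, and was held by no neuron.

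The combinations differed between neurons, except that samples 7, 8 and 10 held the same 4 of the 7 genes. Of the 7 genes, sample 1 held Gabra2 and Gabrb1, and Gabrg1 had 2 fragments there. Sample 2 held Gabra2, Gabra5 and Gabrg1. Sample 3 held Gabra2 and Gabrg1. The library of sample 4 held Gabra2 alone.

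Samples 5, 7, 8 and 10 each held Gabra2, Gabra3, Gabra5 and Gabrb1 together. Sample 5 added Gabrb2 and Gabrg1, which made 6 of the 7 genes, the most of any neuron. Sample 6 held Gabra5, Gabrb1 and Gabrb2, and sample 9 held Gabra2 and Gabrq. In 5 neurons, samples 5, 6, 7, 8 and 10, Gabra5 and Gabrb1 were both held. Among these 5 are samples 5, 6 and 7, which are Type-1 and from Dbx1;Ai148 mice, and 2 Unknown neurons.

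Among the 7 genes, an alpha and a beta subunit were held together in 6 neurons, samples 1, 5, 6, 7, 8 and 10. With a limit of 5 FPKM samples 1 and 5 dropped out, and 4 neurons remained. With TPM or a limit of 0.1 FPKM the library of sample 4 joined the 6. Gabrg1 was held with an alpha and a beta subunit of the 7 in sample 5 only.

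Of the 21 pairs among the 7 genes, 16 were held together by at least 1 neuron and 5 by none. Gabrq, which 1 neuron held, is in each of the 5, and Gabra2 is the only one of the others held with it. Gabra5 and Gabrb1 were held together in 5 neurons, Gabra5 alone in sample 2 and Gabrb1 alone in sample 1. Gabra2 and Gabra5 were also together in 5 neurons. With 10 neurons, and with genes held by between 1 and 9 of them, such counts describe the libraries only.

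The rho subunit gene Gabrr2, best known from the retina, was at 53.9 FPKM in sample 3, on 3536 fragments, and at 0 to 2 fragments elsewhere. In that neuron it stood above Gabra2 at 31.9 FPKM and Gabrg1 at 18.5 FPKM. Gabra6, Gabrd, Gabrp, Gabrr1 and Gabrr3 were without a single fragment in all 10 libraries, where up to 3 could be missed in each.

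The genes lie in clusters, a feature the choice of the 7 did not use. Gabrg1, Gabra2, Gabra4 and Gabrb1 follow each other on chromosome 5. Gabra5 and Gabrg3 lie near each other on chromosome 7, and Gabra3 and Gabrq do so on the X chromosome. Neighbours were held together in some neurons and apart in others. Gabra2, itself held by 9 neurons, was held in all 3 neurons with Gabrg1. Gabrb1 and Gabra4 were held together in 3 neurons, Gabrb1 without Gabra4 in 3 and Gabra4 without Gabrb1 in 1. On chromosome 5, Gabrb1 had 7231 fragments and Gabra4 had 4 in sample 1, whereas in sample 2 Gabrb1 had 3 fragments and Gabra4 had 3537. On chromosome 7, Gabra5 was held by 6 neurons and Gabrg3 by 3 of these, samples 6, 7 and 8. On the X chromosome, Gabra3 was held by 4 neurons and Gabrq by 1, and none held both.

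Gabrb1 and Gabra4 lie on opposite strands with their starts inside one another, and the kit used does not mark strand. The stretch upstream of Gabrb1 is shown for that reason. It is read on the strand of Gabrb1 in GRCm38, chr5:71657671-71657809, and the 86 bases in capitals are the first coding bases of Gabra4, which run the other way, so that the last 3 letters are the start codon of Gabra4 read backwards on the opposite strand.
Gabrb1 upstream, plus strand: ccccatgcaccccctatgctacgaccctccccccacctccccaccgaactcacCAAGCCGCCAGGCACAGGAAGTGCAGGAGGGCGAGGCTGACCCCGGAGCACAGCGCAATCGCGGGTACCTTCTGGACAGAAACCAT

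In GENCODE M21 the exons of Gabrb1 and Gabra4 share 46 bases, 0.332% of the exon bases of Gabrb1 and 0.756% of those of Gabra4. In samples 1 and 2 each gene of the pair had 7231 or 3537 fragments while the other had 3 or 4. Gabra5 shares 148 exon bases, or 4.98%, with the antisense gene Gm9962. For the other 5 genes no exon base is shared with another gene.

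Set beside the phenotypes and mouse lines, the number of the 7 genes held was 6, 3 and 4 in the Type-1 samples 5, 6 and 7, and 1 in the library of sample 4. It was 2 in the Type-2 neuron and 3, 2, 4, 2 and 4 in the Unknown samples 2, 3, 8, 9 and 10, so the ranges of Type-1 and Unknown neurons overlapped. Their summed level was 25.8 to 176 FPKM in the neurons from Dbx1;Ai148 mice and 1.92 to 82.8 FPKM in those from CD-1 mice. By age, the P0 samples 1, 3, 5 and 8 held 2, 2, 6 and 4 of the genes. The P1 sample 10 held 4, and the P2 samples 2 and 9 held 3 and 2. The P3 samples 6 and 7 held 3 and 4, and the library of sample 4, also P3, held 1.

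The number held moved with the library. Samples 5, 6, 7, 8 and 10, each with 8720 genes or more at 1 FPKM, held 3 to 6 of the 7 genes, and the other 5 neurons, each with 6795 genes or fewer, held 1 to 3. The part of the library in these counts was not tested. Thinning all libraries to 21392146 fragments left the 31 held combinations at 31. FPKM was recomputed on the thinned totals and each held combination had 178 fragments or more, so this outcome was largely fixed in advance. It does not bear on the dilution of the cDNA or on capture. The scale of FPKM also differed: 1 FPKM corresponded to between 1.45 TPM in sample 4 and 3 TPM in sample 6, so a ratio of FPKM between 2 neurons can shift by that much, whereas ratios within a neuron do not.

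**Figure D4:**
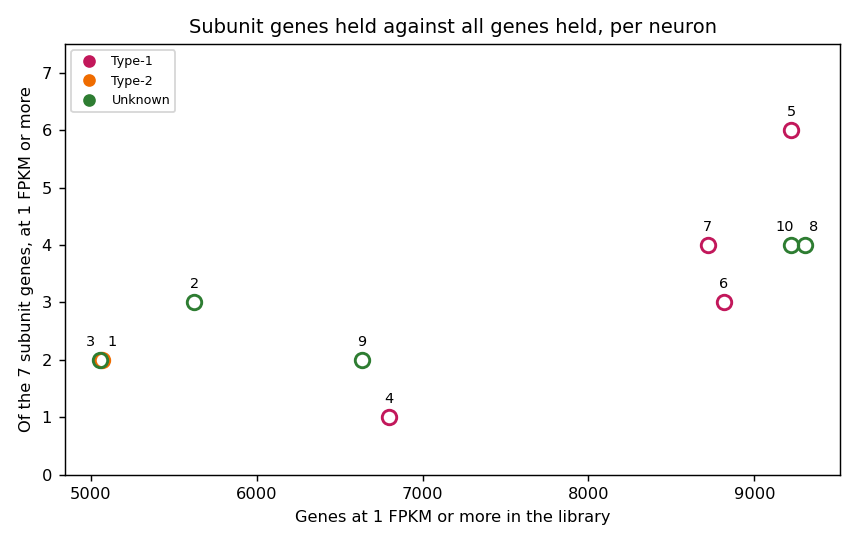
Number of the 7 GABA-A subunit genes at 1 FPKM or more in each neuron against the number of all genes at 1 FPKM or more in the same library, numbered by sample. Samples 5, 6, 7, 8 and 10 stand to the right, with 3 to 6 of the 7 genes.

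The transmitter genes of the same neurons gave no simple partition. Slc17a6, the vesicular glutamate transporter, was at 101 to 230 FPKM in samples 5, 6, 7 and 8. Elsewhere it did not exceed 1.85 FPKM. Samples 5, 6, 7 and 8 all held Gabra5 and Gabrb1. Gad1, a GABA-synthesising enzyme, was at 71.8, 37.2, 8.28 and 92.0 FPKM in samples 1, 3, 8 and 10. The 4 genes of the inhibitory list did not move together. Gad2, the other synthesising enzyme, was at 43.5, 22.9 and 34.2 FPKM in samples 1, 3 and 10, had 2 fragments in sample 8, and was held without Gad1 in samples 4 and 7, at 2.53 and 5.14 FPKM. Slc32a1, the vesicular transporter of GABA and glycine, was held in sample 2 alone, at 5.95 FPKM, where Gad1 had 4 fragments. Slc6a5, the neuronal glycine transporter, was held in samples 1 and 10, on 22465 and 1890 fragments. Of samples 1, 3 and 10, which held both Gad1 and Gad2, sample 10 also held Gabra5 and Gabrb1, sample 1 held Gabrb1 of the pair, and sample 3 held neither.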

How the data were processed

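Cytoplasm was aspirated through the patch pipette from 10 neurons, cDNA was made with the SMART-Seq v4 kit, and Nextera libraries were sequenced from both ends on an Illumina HiSeq, 1 library per neuron. The authors checked the reads with FastQC 0.11.8, trimmed adapters with bbduk, aligned them to GRCm38 with STAR 2.7.7a and counted fragments per gene with featureCounts. The handling of strand, of overlapping genes and of reads with several alignments is not given in the sources used here, so subunit genes that share exon bases or similar coding sequence could exchange reads. The deposited counts are whole fragment counts per gene, not normalized, and the deposited FPKM values were computed by the authors from these counts, the gene lengths and the total of each library. Recomputing FPKM from the deposited counts gave the same values to within a relative difference of 3.3e-13.

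The depth was 21392146 to 36629393 fragments per neuron. Neurons were grouped by the phenotype in the labels and numbered in order of accession. The labels name no animal, so no test was run and no p-value is given. Exact 95% Poisson intervals on fragment counts, and a floor of 3 fragments, cover counting error only. TPM was computed from the counts and lengths as an alternative. The analysis ran in Python 3.11.15 (SciPy 1.17.1, pandas 2.3.3, Matplotlib 3.10.9, NumPy 2.4.6), and the search for genes alike was tested on simulated data.

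The genes named are the 7 subunits, other subunits that reached 1 FPKM in any neuron, genes of the lists of receptor assembly, GABA metabolism and glycine receptors held in at least 5 neurons, and the 2 genes most alike to each of the 7 that was held in at least 3 neurons. Genes named outside this rule, such as Gabre, the subunits without fragments and single transmitter genes or markers, were chosen after their values were seen. Some genes of the family are not reported here. The members, the lists and the limits were chosen with earlier results of these data known. Gene models were those of GENCODE M21 on GRCm38, in which all 19 subunit genes were found with exon lengths equal to the deposited lengths. Upstream sequences came from RefSeq on GRCm38.p6, and no protein sequence was used. Alternatives were other limits for holding a gene, TPM, thinning to the smallest library, removal of small counts that could come from another library, and leaving out neurons.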

Additional observations from a re-analysis of the deposited data

Results flagged for a closer look

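In each phenotype with 4 or 5 neurons, the log2(FPKM + 1) values of the 7 genes and the numbers of subunit genes held were searched for a neuron apart from the rest, with the gap to its nearest neighbour set against the range by Dixon's criterion. Of 18 groups of values examined, 3 had such a neuron. The rate of 1 in 20 of this criterion is for normally distributed values, whereas many of these values were at or near 0. A gene held by 1 neuron of a group is then readily flagged, so 3 of 18 is not read as an excess. Among the Unknown neurons, Gabrq was at 4.14 in sample 9, with the nearest neuron at 0.32. Among the neurons labelled Type-1, Gabrg1 was at 2.70 in sample 5, with the nearest at 0.02. Gabrb2 was at 0.0305 in sample 9 among the Unknown neurons, which is a count of 3 fragments and lies at the limit of detection.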

How the results depend on the processing

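An alpha and a beta subunit of the 7 genes were held together in 6 neurons, in 4 with a limit of 5 FPKM and in 8 with a limit of 10 fragments. The held combinations numbered 31, and 22 to 36 under those limits. Among the genes most alike, 0 of the 10 pairs were also found with Spearman's correlation in place of Pearson's. Results for single genes moved more: Gabrq was held in 2 neurons at 0.1 FPKM and in 0 without sample 9, Gabra2 in 3 neurons at 5 FPKM, Gabrb2 in 0 at 5 FPKM and in 1 without sample 5 or 6, and Gabrg1 in 1 neuron without samples 1 to 4. In TPM, where 1 FPKM corresponded to 1.45 to 3 TPM, the mean was 21.6 for Gabra3, 78.7 for Gabra5 and 24.0 for Gabrb1. The means in FPKM were 7.62, 27.7 and 8.35, so this shift goes with the change of unit. With a pseudocount of 0.1 the mean log2 value was -2.16 for Gabrb2, -1.11 for Gabrg1 and -2.36 for Gabrq. Such values are lower by construction than those with a pseudocount of 1. No paired analysis was possible because no result comes from a test and the numbers within a phenotype only name the neurons. The depth limits detection to about 3 fragments, and the absence of molecular identifiers leaves amplification error unmeasured. Each phenotype and mouse line holds few neurons, and phenotype and line are unevenly combined.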

Other observations

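Glycine receptors are the other chloride channels of inhibitory synapses in the brainstem, and their genes differed in which neurons held them. Glrb, the beta subunit that ties glycine receptors to gephyrin, was at 106, 97.6, 112, 59.5, 120 and 20.9 FPKM in samples 5 to 10 and at 0.201 FPKM or less in samples 1 to 4. The alpha subunits did not follow Glrb, and were named after their values were seen. Glra1 was held in samples 4 and 9, at 1.63 and 1.56 FPKM, Glra2 in samples 5, 6 and 9, on 1155, 1985 and 1516 fragments, and Glra3 in samples 1, 5, 6 and 7, at 2.34, 1.88, 6.53 and 9.79 FPKM. Of the 5 genes, Glrb alone was held in at least 5 neurons, and Glra4 had no fragment in any library.

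Of 12 genes for receptor assembly, anchoring and chloride transport, all were held by at least 1 neuron and 10 by at least 5. Gphn, the scaffold gephyrin, was held by 9 neurons with a mean of 29.5 ± 19.3 FPKM (SD, n = 10 neurons). Lhfpl4, which couples GABA-A receptors to a neuroligin at inhibitory synapses, was held in samples 5 to 10, at 7.46 to 42.4 FPKM, and was at 0.0468 FPKM or less in samples 1 to 4. Slc12a5, the potassium-chloride cotransporter KCC2 that lowers chloride, was held by the same 6 neurons, at 1.45 to 7.59 FPKM, with a mean over all 10 of 2.75 ± 2.85 FPKM. Slc12a2, the cotransporter NKCC1 that raises chloride, was held by 3 neurons and Shisa7 by 2, and both were named after their values were seen. Samples 1 to 4 also held the fewest genes but for sample 9, and the part of the library in these splits was not tested.

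Genes with the pattern most like that of each of the 5 genes held in at least 3 neurons were sought among 10420 genes, by Pearson's r of log2(FPKM + 1) over the 10 neurons. The closest were Mtf1 for Gabra2 at 0.95, Bcar1 for Gabra3 at 0.99, Vash2 for Gabra5 at 0.98, Mak16 for Gabrb1 at 0.97 and Jup for Gabrg1 at 0.95. The next were Sema6a at 0.94, Mmgt1 at 0.99, Actr6 at 0.97, Rnf167 at 0.97 and Csrp1 at 0.94, in the same order. The median of the best r over all these genes was 0.97, so a closest gene at this r is usual with 10 points that share depth and capture. None of these genes was among the closest 2 by Spearman's correlation.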
